A study of Arabidopsis thaliana with 24 samples.

Results

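The transcripts of 10 regulators of the nitrate response were followed through 24 root libraries of Arabidopsis thaliana, accession Col-0. The genes were taken by locus identifier: NLP7 (AT4G24020), LBD37 (AT5G67420), LBD38 (AT3G49940), LBD39 (AT4G37540), HRS1 (AT1G13300), HHO1 (AT3G25790), HHO2 (AT1G68670), HHO3 (AT1G25550), BT1 (AT5G63160) and BT2 (AT3G48360). They were 10 of the 32833 genes listed, and all 10 were among the 20546 genes with enough counts to be tested. The libraries formed 8 groups of 3: mock or 2.5 nM isoxaben, on agar medium adjusted to 6 or 60 mM KNO3, in a long-term or a shift experiment. Isoxaben inhibits cellulose synthesis. Long-term seedlings stood on the treatment medium until the roots were harvested at 6 days, whereas shift seedlings grew on a polyester mesh without isoxaben and were moved on day 5 to mock or isoxaben medium of the same KNO3 concentration. All groups were wild type on modified MS agar, and a change of KNO3 changes nitrate, potassium and ionic strength together. The labels do not say whether replicates came from separate plates or sowings, so p-values measure only the spread between these libraries, which may be technical.

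Nitrate acts on plants as a nutrient and as a signal. NLP7 is a transcription factor that is retained in the nucleus when nitrate arrives and switches on the primary nitrate response, so that its activity is set largely at the protein level. Among its targets are genes of repressors that limit the response: the LBD37, LBD38 and LBD39 proteins, which also repress anthocyanin synthesis, and the NIGT1 family (HRS1, HHO1, HHO2 and HHO3), which represses genes of high-affinity nitrate uptake and links nitrate to phosphate signalling. BT1 and BT2 carry a BTB and a TAZ domain and limit nitrate uptake and nitrogen use in Arabidopsis.

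Library totals ranged from 18902538 to 20519913 counts, and an unseen gene could stand for up to 3 counts in a library, or at most 0.167 CPM (counts scaled to the library total). This limit reflects counting error alone. All 10 markers of root tissue were detected in every group, with summed levels between 395 and 725 CPM. The 20 photosynthesis genes used as markers of shoot tissue were also detected in every group, with summed levels between 199 and 925 CPM. The replicates that differed most were isoxaben replicates 1 and 2 of the long-term 60 mM group, whose chi-square was 21.7 per degree of freedom, against 2.64 in the closest pair. The remaining isoxaben pairs there had 10.1 and 12.8, against 3.23 to 4.02 in long-term mock at 60 mM. Pairs of other groups reached up to 12.8, in shift isoxaben at 6 mM.

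The level of a gene was expressed as CPM, with libraries scaled by the trimmed mean of M values (TMM). Per kilobase of exon, LBD37 had the highest level of the 10, with a median of 105 CPM per kilobase over the 24 libraries and a range from 87.9 to 115. LBD39 and LBD38 followed with medians of 44.2 and 39.7 CPM per kilobase. The medians of HRS1, HHO3, NLP7, HHO1 and HHO2 lay between 33.2 and 18.1 CPM per kilobase. BT2 with 13.9 and BT1 with 4.95 CPM per kilobase were lowest. BT1 varied most between groups, with a ratio of 2.97 between its highest and lowest group mean, followed by HHO1 with 2.15, BT2 with 2.096, HRS1 with 1.91 and HHO3 with 1.75. LBD39, NLP7, LBD38, HHO2 and LBD37 stayed between 1.38 and 1.16. BT1 and BT2 also varied most within groups: the largest ratio between libraries of a group was 1.89 for BT1, in shift mock at 6 mM, and 2.103 for BT2, in shift isoxaben at 60 mM.

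**Figure D1:**
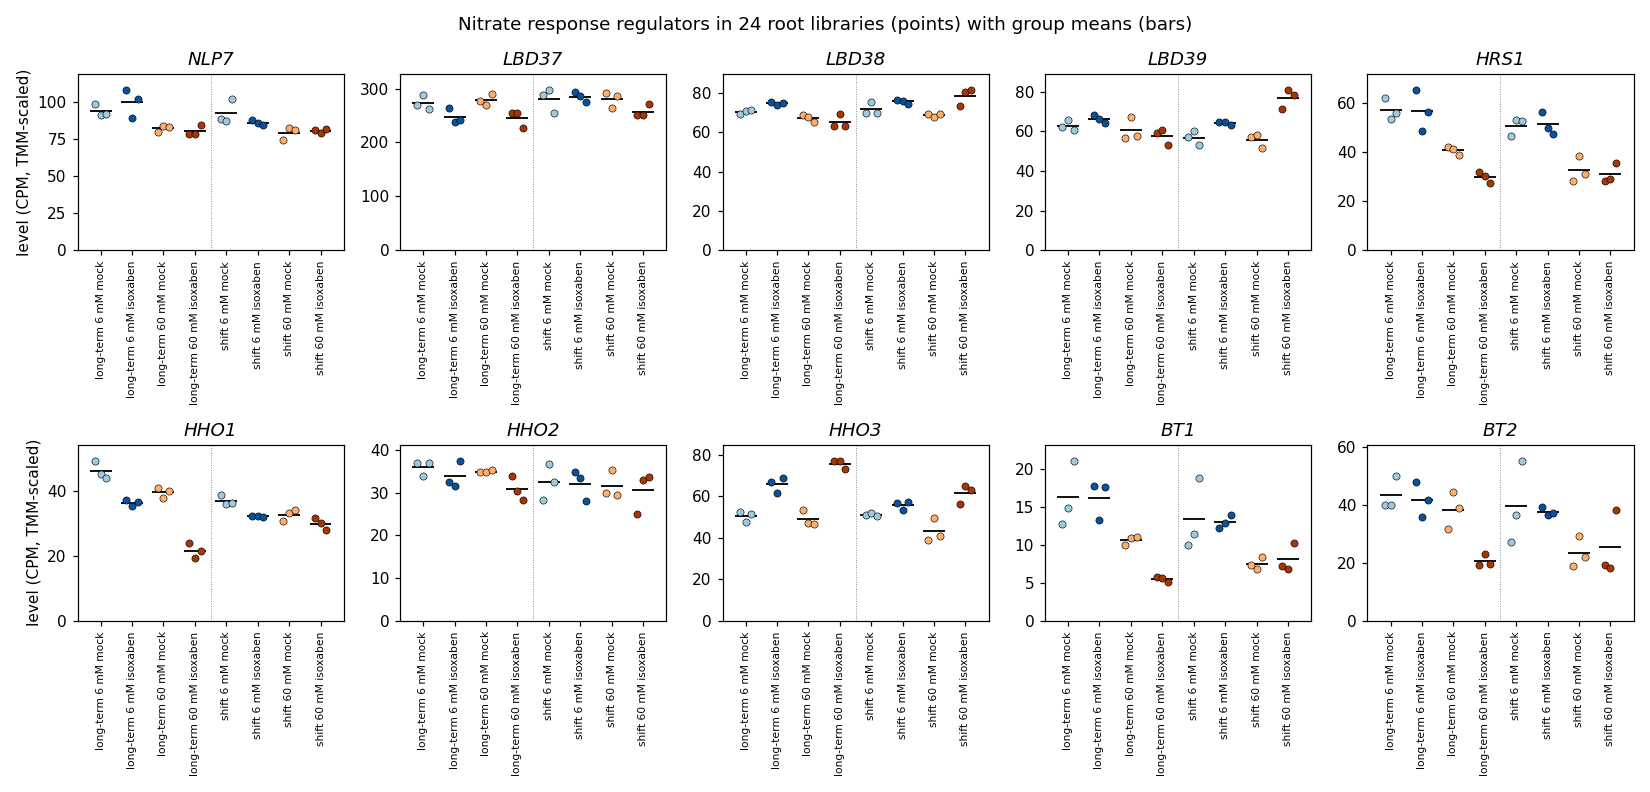
Level of each of the 10 genes in CPM (vertical axes, from 0) in the 24 libraries, by group; points are libraries and bars are means of 3 libraries. HHO1 is lowest and HHO3 highest in long-term isoxaben at 60 mM KNO3, with means of 21.6 and 75.8 CPM, and HRS1 and BT1 are lower at 60 mM than at 6 mM in both experiments.

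Differences were tested with the quasi-likelihood test of edgeR, and a call needed an adjusted p below 0.05, adjusted by Benjamini-Hochberg across the whole table of tested genes. Long-term isoxaben at 60 mM KNO3 changed 6 of the 10 regulators, against 31.9% of all genes tested: HHO3 was higher, and LBD37, HRS1, HHO1, BT1 and BT2 were lower, directions called for 16% and 15.8% of all genes. The median log2 difference of the 10 was -0.18, against 0.01 over all genes. Long-term isoxaben at 6 mM changed 2 of 10, against 5.69% of all genes: HHO3 was higher and HHO1 lower, directions called for 3.9% and 1.79% of all genes. After the shift at 60 mM, isoxaben raised 3 of 10, namely LBD38, LBD39 and HHO3, against 12.9% of all genes called and 7.35% called higher. After the shift at 6 mM, 0 of 10 were called, against 0.949% of all genes. There, 2 of the 10, LBD39 and HHO1, had an unadjusted p under 0.05 in the edgeR test, and DESeq2 also called 0. The share of all genes at that unadjusted threshold was not counted, and 0.949% does not stand for it.

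**Figure D2:**
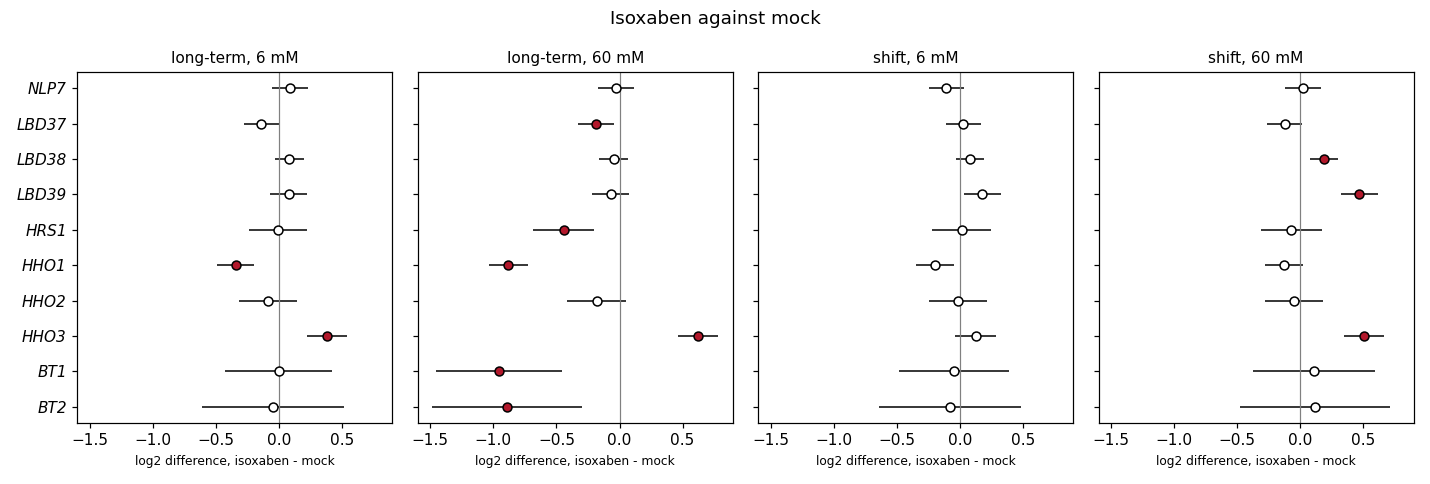
Log2 difference between isoxaben and mock (horizontal axes) for each of the 10 genes in the 4 settings; bars are 95% intervals and filled points are called. HHO1 at -0.88, BT1 at -0.96 and BT2 at -0.89 are the largest falls, all long-term at 60 mM, and HHO3 is called higher in 3 settings, by 0.38, 0.63 and 0.51.

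Between 60 and 6 mM KNO3, more of the regulators were called under long-term isoxaben than in the other 3 settings. HRS1 alone was called in long-term mock, 1 of 10 against 6.77% of all genes. In shift mock 4 of 10 were lower at 60 mM, NLP7, HRS1, HHO3 and BT1, against 8.2% of all genes called and 4.88% called lower. Under long-term isoxaben 8 of 10 were called, against 25.6% of all genes: HHO3 was higher, and NLP7, LBD38, LBD39, HRS1, HHO1, BT1 and BT2 were lower, directions called for 12.5% and 13.1% of all genes. This comparison shares the libraries of long-term isoxaben at 60 mM with the isoxaben effect at that concentration. Under isoxaben after the shift 3 of 10 were called, against 14% of all genes, with LBD39 higher and HRS1 and BT1 lower, directions called for 6.93% and 7.11% of all genes. HRS1 was the only one of the 10 called in all 4 of these comparisons.

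**Figure D3:**
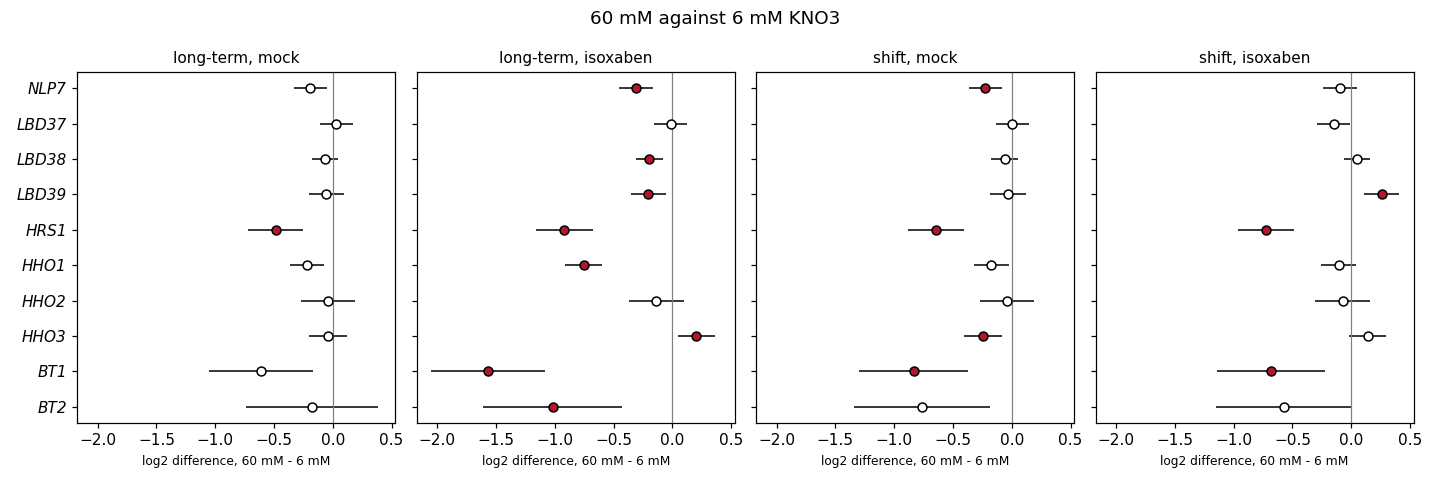
Log2 difference between 60 and 6 mM KNO3 (horizontal axes) for each of the 10 genes in mock and isoxaben libraries of both experiments; bars are 95% intervals and filled points are called. HRS1 is called lower at 60 mM in all 4 panels, by values from -0.92 to -0.49, and BT1 reaches -1.57 under long-term isoxaben.

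NLP7, the activator, changed little under isoxaben. Its level under long-term isoxaben at 60 mM was 78.8, 78.5 and 84.9 CPM, against 80.1, 84.0 and 83.0 CPM in mock, and these groups overlapped. The log2 difference of NLP7 was -0.03, with a 95% interval from -0.17 to 0.11 and an adjusted p of 0.793. None of the 4 isoxaben effects was called for NLP7. In the order of its group means, the 4 groups at 6 mM KNO3 stood above the 4 groups at 60 mM. Under isoxaben after the shift the KNO3 difference of NLP7 was -0.10 and was not called (adjusted p = 0.395). Its libraries at 6 mM under long-term isoxaben, with 108, 89.3 and 103 CPM, all lay above those at 60 mM. That KNO3 difference was -0.31 (SE 0.07, adjusted p = 0.000928). In shift mock NLP7 had 89.0, 87.2 and 102 CPM at 6 mM and 74.4, 82.7 and 81.5 CPM at 60 mM, without overlap. The difference was -0.22 (SE 0.07, adjusted p = 0.0356). The call was lost without shift mock replicate 3 at 6 mM (a difference of -0.15, adjusted p = 0.271), replicate 1 at 60 mM (0.186) or replicate 3 at 60 mM (0.057), and when only the libraries compared were fitted (0.127). In long-term mock NLP7 had 99.0, 91.4 and 91.7 CPM at 6 mM and the difference of -0.19 did not pass the test (adjusted p = 0.09), whereas NLP7 was called with library size alone (adjusted p = 0.0473) or with only the libraries compared (0.0295).

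The 3 LBD repressors differed from one another. LBD37 was lower under long-term isoxaben at 60 mM, with 254, 255 and 226 CPM against 277, 270.0 and 289 CPM in mock. The groups did not overlap, and the difference was -0.19 (SE 0.07, adjusted p = 0.0314), a level 0.879 times that of mock. That call was lost without mock replicate 1 (adjusted p = 0.0619), mock replicate 3 (0.123) or replicate 3 under isoxaben (0.157) and with only the libraries compared (0.0571). In bulk roots, fewer cells that express a gene and less RNA of it per cell cannot be told apart. LBD37 was called in no other comparison, and the ranges of all neighbours in the order of its 8 group means overlapped.

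LBD39 rose after the shift to isoxaben at 60 mM. It had 71.4, 80.8 and 78.3 CPM there, against 57.0, 58.1 and 51.5 CPM in mock. All 3 isoxaben libraries were above the mock libraries, and also above every other library group of LBD39. The difference was 0.47 (SE 0.07, 95% interval from 0.32 to 0.62, adjusted p = 1.53e-05), a level 1.38 times that of mock. In the long-term experiment at 60 mM LBD39 had 58.9, 60.9 and 53.0 CPM under isoxaben and 56.9, 67.0 and 57.5 CPM in mock, and the difference of -0.07 was not called (adjusted p = 0.499). The isoxaben effects of the long-term and shift experiments at 60 mM differed by -0.54 for LBD39 (SE 0.10, adjusted p = 0.000444).

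LBD38 moved with LBD39 after the shift at 60 mM, but less. It had 73.2, 80.2 and 81.4 CPM under isoxaben and 69.4, 67.6 and 69.2 CPM in mock, without overlap. The difference was 0.19 (SE 0.05, adjusted p = 0.0165). This call was lost without replicate 2 of mock (adjusted p = 0.0629) or without replicates 2 or 3 of isoxaben (0.0712 and 0.0974) and with only the libraries compared (0.133). Across the 24 libraries the log2 levels of LBD38 and LBD39 had a Pearson r of 0.74, and of 0.53 within groups, a description over libraries that share their groups.

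KNO3 differences were called for LBD39 under isoxaben in both experiments and for LBD38 under long-term isoxaben. Under long-term isoxaben LBD38 fell from 75.2, 74.0 and 74.7 CPM at 6 mM to 63.2, 69.5 and 63.0 CPM at 60 mM, a log2 difference of -0.19 (adjusted p = 0.00764). LBD39 fell there from 68.4, 66.4 and 64.2 CPM to the 60 mM values above, a difference of -0.20 (adjusted p = 0.033). The LBD39 call was lost without 6 mM replicate 1 (adjusted p = 0.117), 6 mM replicate 2 (0.0719) or 60 mM replicate 3 (0.134) and with only the libraries compared (0.0521). Under isoxaben after the shift LBD39 was higher at 60 mM than at 6 mM, where it had 65.0, 64.6 and 63.1 CPM. That difference was 0.26 (SE 0.07, adjusted p = 0.0111), and it was not called without 60 mM replicate 2 (adjusted p = 0.0692). LBD38 was not called there, with a difference of 0.05 (adjusted p = 0.625). In mock libraries the KNO3 differences of LBD38 and LBD39 lay between -0.07 and -0.03 and none was called. Whether the KNO3 difference itself depended on isoxaben was called for neither gene.

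Within the NIGT1 family, HHO1 fell and HHO3 rose under long-term isoxaben, and HRS1 was lower at the higher KNO3 concentration. At 60 mM HHO1 had 24.0, 19.4 and 21.5 CPM under isoxaben and 41.1, 38.1 and 40.3 CPM in mock. The groups were far apart, and the isoxaben libraries were lower than those of every other group. The difference was -0.88 (SE 0.07, 95% interval from -1.03 to -0.73, adjusted p = 1.9e-10), a level 0.543 times that of mock. At 6 mM HHO1 had 37.2, 35.5 and 36.7 CPM under isoxaben and 49.5, 45.4 and 44.1 CPM in mock. The groups did not overlap, with a difference of -0.35 (SE 0.07, adjusted p = 0.00161). The fall at 60 mM was larger than that at 6 mM, by -0.54 (SE 0.10, adjusted p = 0.000468). Both falls were called under every alternative, and the fall at 60 mM lay between -0.96 and -0.81 in all of them.

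After the shift, the isoxaben differences of HHO1 were smaller and not called. It had 31.7, 30.2 and 28.1 CPM under isoxaben and 30.8, 33.3 and 34.4 CPM in mock at 60 mM, and the difference was -0.13 (95% interval from -0.28 to 0.02, adjusted p = 0.285). At 6 mM it had 32.5, 32.4 and 32.0 CPM against 38.9, 36.0 and 36.3 CPM. These groups did not overlap, but the difference of -0.20 had an adjusted p of 0.266. At 60 mM the long-term and shift effects of isoxaben on HHO1 differed by -0.75 (SE 0.10, adjusted p = 9.27e-06). At 6 mM the 2 effects on HHO1 were not called different.

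Between KNO3 concentrations HHO1 was called under long-term isoxaben, where its libraries at 60 mM were all below those at 6 mM, with a difference of -0.75 (SE 0.07, adjusted p = 9.48e-09). In long-term mock its difference of -0.22 had an adjusted p of 0.051, and it was called by DESeq2 (adjusted p = 0.0469), with library size alone (0.0378) and with only the libraries compared (0.0343). Without 6 mM replicate 1 that difference was -0.17 (adjusted p = 0.251).

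HHO1 was also the gene of the 10 that was called between the mock libraries of the long-term and shift experiments. It was lower in shift mock than in long-term mock at 6 mM, by -0.32 (SE 0.07, adjusted p = 0.0222), 1 of 10 called against 0.642% of all genes. At 60 mM the difference was -0.28 (SE 0.07, adjusted p = 0.023), 1 of 10 against 3.3% of all genes. The call at 6 mM was lost without long-term replicate 1 (adjusted p = 0.163), long-term replicate 2 (0.0581), shift replicate 2 (0.104) or shift replicate 3 (0.0739). The call at 60 mM was lost without long-term replicate 1 (0.0903), long-term replicate 3 (0.091) or shift replicate 1 (0.133). Other regulators were called at 60 mM under alternatives only. HRS1 and HHO3 were called without shift replicate 2 (adjusted p = 0.0288 and 0.0275), and BT1 with only the libraries compared (0.0175). The mesh, the transfer and any difference between growth runs cannot be told apart here.

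HHO3 was higher under isoxaben in the long-term experiment at both concentrations. At 60 mM it had 76.9, 77.2 and 73.2 CPM under isoxaben against 53.4, 47.0 and 46.9 CPM in mock. The isoxaben libraries exceeded those of every other group, and the difference was 0.63 (SE 0.07, 95% interval from 0.47 to 0.78, adjusted p = 1.58e-07), a level 1.54 times that of mock. At 6 mM it had 66.8, 61.8 and 69.0 CPM against 52.3, 47.6 and 51.6 CPM. The difference there was 0.38 (SE 0.07, adjusted p = 0.00136). After the shift at 60 mM HHO3 had 56.4, 65.1 and 62.8 CPM under isoxaben and 39.0, 49.6 and 41.0 CPM in mock, again without overlap. It was higher by 0.51 (SE 0.08, adjusted p = 1.48e-05). At 6 mM after the shift the values were 56.8, 53.4 and 57.1 CPM against 51.0, 52.1 and 50.4 CPM. All isoxaben libraries lay above the mock libraries, yet the difference of 0.12 was not called (adjusted p = 0.636).

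The KNO3 differences of HHO3 were small. It was lower at 60 mM in shift mock, by -0.24 (SE 0.08, adjusted p = 0.0447), and higher at 60 mM under long-term isoxaben, by 0.20 (SE 0.07, adjusted p = 0.0439). The latter call was lost in 11 of 12 alternatives, among them all 6 fits without a library, with an adjusted p of at most 0.19, reached without 6 mM replicate 2. The former was lost in 7 of 12, among them the fits without shift mock replicates 1, 2 or 3 at 6 mM (adjusted p = 0.0885, 0.121 and 0.0925) and without replicates 1 or 3 at 60 mM (0.245 and 0.166). 

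HRS1 was lower at 60 mM than at 6 mM KNO3 in every setting. In long-term mock it had 61.9, 53.5 and 56.0 CPM at 6 mM and 42.2, 41.4 and 38.8 CPM at 60 mM. The groups did not overlap, and the difference was -0.49 (SE 0.11, 95% interval from -0.72 to -0.25, adjusted p = 0.00743). In shift mock it had 46.5, 52.9 and 52.8 CPM at 6 mM and 28.1, 38.3 and 31.2 CPM at 60 mM, a difference of -0.64 (adjusted p = 0.000554). Under long-term isoxaben it fell from 65.3, 48.5 and 56.4 CPM to 32.0, 30.4 and 27.6 CPM, the lowest group mean of HRS1. This difference was -0.92 (adjusted p = 1.52e-06). Under isoxaben after the shift it fell from 56.5, 50.03 and 47.3 CPM to 28.2, 29.2 and 35.5 CPM, a difference of -0.73 (adjusted p = 6.83e-05). All 4 calls were kept under every alternative. In the order of the group means the 4 groups at 6 mM stood above the 4 groups at 60 mM, with no overlap between the lowest at 6 mM and the highest at 60 mM. The group means of NLP7 and BT1 were split by concentration in the same way. For each of those genes, however, the lowest library at 6 mM lay below the highest at 60 mM.

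Isoxaben lowered HRS1 in the long-term experiment at 60 mM, where all isoxaben libraries were below the mock libraries listed above. The difference was -0.44 (SE 0.12, adjusted p = 0.00416), a level 0.735 times that of mock. At 6 mM it was -0.01 (95% interval from -0.24 to 0.22). After the shift the isoxaben differences of HRS1 were 0.01 at 6 mM and -0.07 at 60 mM, and neither was called. Whether the long-term effect on HRS1 depended on KNO3 was not called either, with a difference of -0.43 (adjusted p = 0.083). It was called with only the libraries compared (0.0354) and without 6 mM isoxaben replicate 2 (0.0252). The long-term and shift effects on HRS1 at 60 mM were not called different. HHO2, the last NIGT1 gene, had group means between 30.5 and 35.9 CPM and was called in none of the 14 comparisons, with a smallest adjusted p of 0.231. By an unadjusted p under 0.05 in edgeR HHO2 was also called in none.

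BT1 and BT2 fell under long-term isoxaben at 60 mM. BT1 had 5.73, 5.56 and 5.07 CPM there and 10.0, 10.9 and 11.0 CPM in mock. The isoxaben libraries were below those of every other group, and the difference was -0.96 (SE 0.24, 95% interval from -1.46 to -0.46, adjusted p = 0.00332), a level 0.514 times that of mock. BT2 had 19.2, 23.1 and 19.7 CPM under isoxaben and 31.7, 44.4 and 38.9 CPM in mock. The groups did not overlap, with a difference of -0.89 (SE 0.28, adjusted p = 0.0213). The BT2 call was lost without mock replicate 2 (adjusted p = 0.08), mock replicate 3 (0.0506), isoxaben replicate 1 (0.0705) or isoxaben replicate 3 (0.0615). In the other 3 settings the isoxaben differences of BT1 and BT2 lay between -0.08 and 0.12 and none was called. Whether the long-term effect on BT2 depended on KNO3 was not called, with a difference of -0.84 (adjusted p = 0.196). It was called with only the libraries compared (0.0142). The long-term and shift effects on BT2 at 60 mM were not called different.

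Under long-term isoxaben both BT genes were lower at 60 than at 6 mM KNO3. BT1 under long-term isoxaben had 17.7, 13.2 and 17.6 CPM at 6 mM, all above the 60 mM values just given. The difference of -1.57 (SE 0.23, adjusted p = 2.64e-05) was the largest of the 10 regulators in any pairwise comparison. BT2 fell there from 47.8, 36.0 and 41.7 CPM at 6 mM, a difference of -1.02 (SE 0.28, adjusted p = 0.0121), a call lost without 6 mM replicate 1 (adjusted p = 0.0502). In long-term mock BT2 had 40.1, 39.9 and 49.98 CPM at 6 mM, a range that overlapped that at 60 mM, and its difference of -0.18 was not called (adjusted p = 0.79). BT1 had 12.7, 14.8 and 21.0 CPM there. The groups did not overlap, and the difference of -0.61 had an adjusted p of 0.09. DESeq2 called it (adjusted p = 0.0405), as did the fit of only the libraries compared (0.0419) and the fit without 6 mM replicate 1 (0.0489).

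After the shift, BT1 was lower at 60 mM in mock and isoxaben libraries. In mock it had 9.91, 11.3 and 18.7 CPM at 6 mM and 7.34, 6.75 and 8.33 CPM at 60 mM, a difference of -0.83 (SE 0.22, adjusted p = 0.0194). Under isoxaben it had 12.1, 12.9 and 13.8 CPM at 6 mM and 7.13, 6.78 and 10.3 CPM at 60 mM, a difference of -0.68 (SE 0.22, adjusted p = 0.0404). The groups did not overlap in either. The mock call was lost without 6 mM replicate 3 (a difference of -0.51, adjusted p = 0.142), 60 mM replicate 1 (0.0705) or 60 mM replicate 2 (0.082). It was also lost when only the libraries compared were fitted. The isoxaben call was lost without any 1 of the 3 replicates at 6 mM (0.0636, 0.091 and 0.124) and without 60 mM replicates 1 or 2 (0.132 and 0.166). Without a low-count filter that call was lost too. BT2 in shift mock had 27.3, 36.4 and 55.4 CPM at 6 mM and 18.8, 29.4 and 21.9 CPM at 60 mM. These groups overlapped and the difference of -0.76 was not called (adjusted p = 0.109), although it was without 6 mM replicate 1 (-0.97, adjusted p = 0.0426). Without 6 mM replicate 3 it was -0.45 (adjusted p = 0.453). Under isoxaben after the shift BT2 had 39.3, 36.4 and 37.2 CPM at 6 mM and 19.2, 18.3 and 38.4 CPM at 60 mM. There replicate 3 at 60 mM lay among the 6 mM libraries, and without it the difference moved from -0.57 (adjusted p = 0.2) to -1.005 (adjusted p = 0.0153).

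BT1 and BT2 varied together across libraries, with a Pearson r of 0.90 between their log2 levels over 24 libraries and of 0.74 after the group means were removed. HRS1 had an r of 0.88 with BT1 and of 0.87 with BT2, and within groups of 0.28 and 0.65. HHO1 and HHO3 had an r of -0.60 over all libraries and of 0.14 within groups. These values describe 24 libraries that share 8 groups and carry no p.

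Tests of the difference between effects called from 0 to 4 of the 10 regulators. Whether the long-term isoxaben effect depended on KNO3 was called for HHO1, 1 of 10 against 11.8% of all genes. For BT1 that difference was -0.96 with an adjusted p of 0.051, and it was called by DESeq2 (adjusted p = 0.0127) and with only the libraries compared (0.0144). After the shift it was called for HHO3, 1 of 10 against 3.5% of all genes. At 60 mM the isoxaben effect was lower in the long-term than in the shift experiment for 4 of 10, LBD38, LBD39, HHO1 and BT1, against 11.5% of all genes called and 5.86% called lower. At 6 mM that difference was called by edgeR for 0 of 10, against 0.263% of all genes. By an unadjusted p under 0.05 it was called for 2 of 10, NLP7 and HHO3, and DESeq2 called 0. The 0.263% is not the share of all genes at that unadjusted threshold, which was not counted.

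Shoot markers were called lower in the isoxaben effect that changed most of the regulators. Under long-term isoxaben at 60 mM, 9 of the 20 shoot markers were called lower and 0 higher, with a median log2 difference of -0.71. Of all genes, 15.8% were called lower and 16% higher there. The summed level of the markers was 199, 707 and 267 CPM in isoxaben replicates 1, 2 and 3 and ranged from 575 to 811 CPM in mock. Isoxaben replicate 2 thus lay within the mock range. No marker was at 0 in any group. Between KNO3 concentrations under long-term isoxaben, where 8 of the 10 regulators were called, 0 of the 20 markers were, with a median of -0.22. That comparison called 25.6% of all genes. Within groups the log2 level of HHO1 had a Pearson r of -0.76 with the log2 shoot sum over 24 libraries, and the other 9 regulators had values between -0.13 and 0.45. The part of shoot tissue in the changes of the regulators was not tested.

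The sequences upstream of HRS1, HHO1 and HHO3 are shown because these relatives responded differently to isoxaben. NIGT1 proteins are known to bind GAATC and the palindrome GAATATTC, and to repress genes of their own family. The 250 bases before the annotated gene start were read from RefSeq's TAIR10.1 assembly and are printed 5′ to 3′, with GAATC, its reverse complement GATTC and GAATATTC in capitals.
HRS1, chr1:4556628-4556877, plus strand: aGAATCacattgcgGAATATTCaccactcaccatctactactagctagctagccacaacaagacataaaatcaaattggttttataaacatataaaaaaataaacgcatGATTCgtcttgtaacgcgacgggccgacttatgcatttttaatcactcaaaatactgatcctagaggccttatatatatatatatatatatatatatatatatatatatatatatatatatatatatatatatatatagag
HHO1, chr3:9412802-9413051, plus strand: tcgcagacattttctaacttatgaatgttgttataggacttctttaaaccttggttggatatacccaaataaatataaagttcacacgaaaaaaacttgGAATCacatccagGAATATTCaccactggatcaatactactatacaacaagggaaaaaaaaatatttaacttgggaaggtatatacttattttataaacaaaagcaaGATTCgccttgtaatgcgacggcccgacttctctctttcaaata
HHO3, chr1:8976076-8976325, plus strand: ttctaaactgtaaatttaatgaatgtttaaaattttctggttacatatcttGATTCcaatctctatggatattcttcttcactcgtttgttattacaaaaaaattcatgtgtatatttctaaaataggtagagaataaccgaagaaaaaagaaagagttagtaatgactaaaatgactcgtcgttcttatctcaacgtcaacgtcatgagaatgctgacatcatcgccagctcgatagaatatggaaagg

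HRS1 and HHO1 each held the palindrome, at 236 to 229 bases before the HRS1 start and at 138 to 131 bases before the HHO1 start. They were the only 2 of the 10 regulators with it, and 0.860% of 27443 promoter windows of the same length held it. In both, a GAATC began 13 bases before the palindrome, and a GATTC began 95 bases after the start of the palindrome in HRS1 and 94 bases after it in HHO1. The longest run shared by these windows was gGAATATTCaccact, 15 bases, and no other pair of the 10 shared more than 11. HHO3 held a single GATTC and no palindrome. GAATC, on either strand, occurred upstream of 9 of the 10 regulators, all but HHO2, and in 38.8% of all windows.

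The site bound by PHR1, the regulator of the phosphate starvation response, was searched on both strands as GNATATNC, which also matches GAATATTC. It occurred upstream of 4 of 10, HRS1, HHO1, HHO3 and BT1, and in 5.46% of all windows. The core of the nitrate-responsive element bound by NLP proteins, searched on both strands as GACNCTTNNNNNNNNNNAAG, occurred upstream of 0 of 10 and in 0.146% of all windows. These matches describe letters in the windows shown, and the data hold no measurement of binding.

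**Figure D4:**
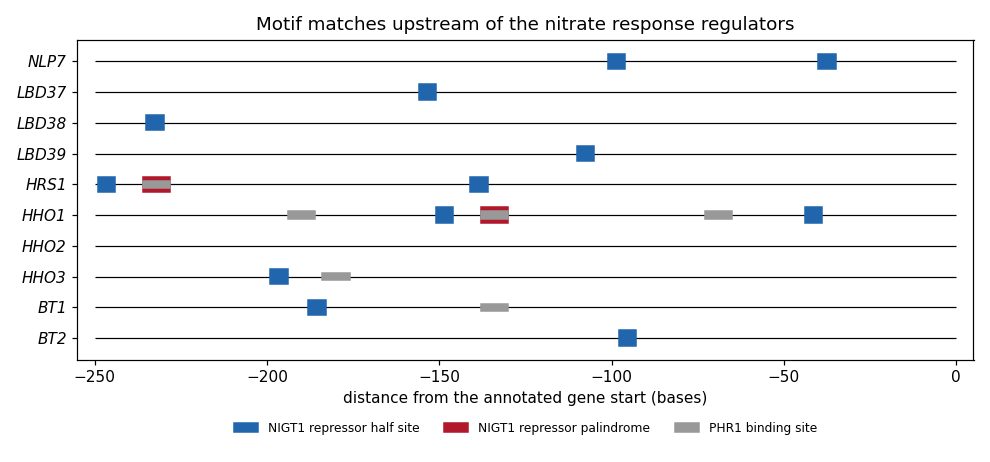
Matches to GAATC (blue), GAATATTC (red) and the PHR1 site GNATATNC (grey), on either strand, in the 250 bases before the annotated start of each of the 10 genes; the horizontal axis is the distance from the start in bases. HRS1 and HHO1 alone hold the red palindrome, and HHO2 holds none of the matches.

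Genes related to the regulators by pathway or gene family were counted as lists. Of 16 genes of nitrate uptake and assimilation 15 were tested, and long-term isoxaben at 60 mM lowered 14 and raised 1, with a median log2 difference of -0.68, against 15.8% of all genes lower, 16% higher and a median of 0.01. NIA1, a nitrate reductase, fell there from a mean of 1336 ± 103 (SD, n = 3) to 400 ± 132 CPM, a log2 difference of -1.74 (adjusted p = 3.07e-07). The gene that rose, NRT2.4, encodes a high-affinity nitrate transporter and moved from 0.393 to 1.63 CPM. In the other 3 isoxaben effects the list had 1 gene lower at 6 mM long-term, 0 after the shift at 6 mM and 1 lower after the shift at 60 mM. Between KNO3 concentrations the list had 1 gene lower in long-term mock, 1 higher and 1 lower in shift mock, 12 lower under long-term isoxaben and 1 lower under isoxaben after the shift. The shares of all genes called in either direction were 5.69%, 0.949% and 12.9% in those 3 isoxaben effects and 6.77%, 8.2%, 25.6% and 14% in these 4 KNO3 effects.

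Other signalling genes of the nitrate response, 19 tested of 20, had 2 higher and 8 lower under long-term isoxaben at 60 mM, against 16% and 15.8% of all genes. NAC080, known as NAC4 and active in root branching after nitrate, fell there from 98.9 ± 5.63 to 27.9 ± 3.07 CPM, a log2 difference of -1.83 (adjusted p = 9.02e-16). The same list had 1 higher and 1 lower long-term at 6 mM, 0 after the shift at 6 mM, and 2 higher and 2 lower after the shift at 60 mM. Of all genes, 5.69%, 0.949% and 12.9% were called in these effects, in that order. Between KNO3 concentrations the list had 1 higher and 4 lower in long-term mock, 2 and 4 in shift mock, 1 and 8 under long-term isoxaben, and 3 and 4 under isoxaben after the shift. The shares of all genes called in these KNO3 effects were 6.77%, 8.2%, 25.6% and 14%, in that order.

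Relatives of the LBD, NIGT1 and BT genes, 7 tested of 9, had 3 higher and 2 lower under long-term isoxaben at 60 mM, where 31.9% of all genes were called. BT5, a relative of BT1 and BT2, moved against them: it rose from 16.6 ± 0.45 to 28.3 ± 1.36 CPM, by 0.77 on the log2 scale (adjusted p = 8.12e-09). BT5 was higher under isoxaben in the other 3 settings as well, by 0.46, 0.33 and 0.91, and is named here after its values were seen. Of 7 phosphate starvation genes linked to the NIGT1 repressors, 1 was higher and 2 were lower in that comparison, beside the same 31.9% of all genes. Of 7 anthocyanin genes, targets of the LBD repressors, only GSTF12 had enough counts to be tested, and it rose under long-term isoxaben at 60 mM from a mean of 0.188 to 0.957 CPM, near the limit of detection.

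By pattern over the 24 libraries, the gene most like HHO1 was TGA1, a transcription factor of the nitrate response, with a Pearson r of log2 CPM of 0.950, among 15446 genes searched. The gene most like HRS1 was CIPK23, a kinase that phosphorylates the nitrate transceptor NRT1.1, with an r of 0.937. ATMAP65-6 (0.922) was second for HHO1 and CEN2 (0.935) for HRS1. BT1 was most like AT3G07310 (0.947) and AT1G21000 (0.932), and BT2 most like AT2G36320 (0.950) and AT1G15740 (0.944). HHO3 was most like AT3G19390 (0.929) and COBL5 (0.925). NLP7 (at most 0.874), LBD38 (0.855, with SUC2), LBD37 (0.830), LBD39 (0.803) and HHO2 (0.755) had lower best values. These are descriptions without a p, chosen as the best of many genes.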

How the data were processed

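Per the labels' protocols, libraries of polyadenylated root RNA were read on a DNBSEQ instrument. Per the submitters' processing notes, STAR 2.7.9a, DESeq2 1.32.0 and the TAIR10 build were used, while the annotation, strand setting and treatment of reads matching several genes are not given in the sources used here. The authors deposited raw counts per gene and a normalised signal, which equals each count divided by 1 factor per library within 5.11e-13%. The counts were used for all results.

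Genes were filtered by filterByExpr over the 8 groups, leaving 20546 genes that hold 99.96% of counts. The quasi-likelihood test of edgeR 4.0.16 (R 4.3.3) used TMM scaling, 8 group means in 1 fit of 24 libraries, robust dispersions and 16 residual degrees of freedom. SE is the absolute log2 difference divided by the square root of F, an approximation, and 95% intervals rest on it. Log2 differences used a prior count of 0.125, and correlations used log2 CPM with a prior count of 2. Adjusted p-values are from edgeR where no other tool or fit is named. Groups came from the sample titles. Alternatives were DESeq2 1.42.0, DESeq2 size factors, library size alone, no low-count filter, only the libraries compared, a replicate block and leaving out each library.

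The 10 regulators, the 5 lists of related genes and the marker lists were chosen with earlier results of these data known. All 10 regulators were described. In each comparison at most the 2 largest rises and 2 largest falls among called list genes could be named. Pattern likeness took the 2 best genes whose mean reached 5 CPM. HHO names follow the series' text, and other symbols follow RefSeq's TAIR10.1 annotation, which held 32548 of the identifiers. No regulator overlapped another annotated gene, and 0 of their 50-base exon windows recurred at another place of the assembly. Plots were made in matplotlib 3.10.9.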

Additional observations from a re-analysis of the deposited data

Results flagged for a closer look

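Differences between isoxaben effects passed the edgeR test for 5 of the regulators. The long-term isoxaben effect on HHO1 was lower at 60 than at 6 mM KNO3 by -0.54 (adjusted p = 0.000468), and the long-term effect at 60 mM was lower than the shift effect by -0.75 (adjusted p = 9.27e-06). For LBD39 the long-term effect at 60 mM was lower than the shift effect by -0.54 (adjusted p = 0.000444). These 3 differences were called under every alternative run.

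The other 3 were close to the threshold. The isoxaben effect on HHO3 after the shift was higher at 60 than at 6 mM by 0.38 (adjusted p = 0.0391), and the call was lost in 12 of 18 alternatives, among them 10 of the 12 that left out a library, with an adjusted p of up to 0.133, reached without shift mock replicate 1 at 60 mM. At 60 mM the long-term effect was lower than the shift effect by -0.23 for LBD38 (adjusted p = 0.044) and by -1.07 for BT1 (adjusted p = 0.0396). Each of these was lost in 11 of 18 alternatives, among them 9 of the 12 that left out a library for LBD38 and 10 of 12 for BT1. For LBD38 the adjusted p reached 0.128, with only the libraries compared. For BT1 it reached 0.122, without shift isoxaben replicate 3.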

How the results depend on the processing

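Of 140 results for the 10 regulators, 35 were called, 19 of them under every alternative and 16 not under at least 1, of which 5 were lost only when a library was left out. Another 12 were called under at least 1 alternative only, and 0 changed direction. The comparisons share libraries, and in the main fit they called from 0.263% to 31.9% of all genes. Calls for KNO3 in long-term mock went from 1 to 3 with library size alone, a replicate block or DESeq2 and to 4 with only the libraries compared. With only the libraries compared, calls went from 4 to 1 for KNO3 in shift mock, from 1 to 2 for shift against long-term mock at 60 mM, from 1 to 4 for the dependence of the long-term isoxaben effect on KNO3, and from 1 to 0 for that dependence after the shift. The last 2 counts were 2 and 0 with the replicate block, and the first of them 2 with DESeq2. Without a low-count filter, calls for the long-term against the shift effect at 60 mM went from 4 to 2. These counts are given without the shares of all genes called in the same fits, and the cause of the changes was not tested.

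Leaving out 1 library at a time gave 2 calls throughout for long-term isoxaben at 6 mM, 4 to 6 at 60 mM, and after the shift 0 at 6 mM and 2 to 3 at 60 mM. For KNO3 it gave 1 to 2 in long-term mock, 1 to 4 in shift mock, 5 to 7 under long-term isoxaben and 1 to 4 under isoxaben after the shift. For shift against long-term mock it gave 0 to 1 at 6 mM and 0 to 3 at 60 mM. The dependence of the isoxaben effect on KNO3 gave 1 to 3 long-term and 0 to 1 after the shift, and its dependence on the experiment gave 0 at 6 mM and 2 to 4 at 60 mM. Shares of all genes called in these fits are not given either.

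Same-numbered replicates deviated together little: the correlation of their deviations had a median of 0.01, from -0.155 to 0.274, and was over 0.1 in 8 of 84 pairs, so the numbers were not taken to pair the samples. With the replicate block HHO1 and BT1 were also called for KNO3 in long-term mock (adjusted p = 0.0412 and 0.0159) and BT1 for the dependence of the long-term isoxaben effect on KNO3 (0.0047). HHO3 was no longer called for KNO3 in shift mock (0.0549) or under long-term isoxaben (0.0533), nor for the dependence of the shift effect on KNO3 (0.0507). With 3 libraries a group, BT1 and BT2, which spread most, had the widest intervals.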
